A study of Arabidopsis thaliana with 4 samples.

Results

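The gene models described here are the shortest annotated entries of an RNA-seq table of Arabidopsis thaliana: those that carry an annotated transcript, span fewer than 300 nt from start to end, and have an accepted estimate (status OK) in every library. They number 1702 of the 36251 models of the table. Of these, 1033 span under 150 nt and 669 span 150 nt or more. A total of 1376 lie alone in their locus, the stretch of genome that the authors' software handled as a unit, and 326 share it with other models. Apart from the status of the estimates, no measured value entered the rule that picks the models. The rule itself was set with earlier results of these data known.

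The libraries came from whole seedlings of 2 lines of the accession Columbia (Col-0), named Another Col-0 and SALK Col-0, both recorded as wild type, with 2 biological replicates of each line. Plants of both lines were 2 weeks old and grown in soil in long days at 22 °C, and total RNA was treated with DNase I. The TruSeq RNA V2 kit behind the libraries selects polyadenylated RNA and, by its standard protocol, does not mark strand. Reads were single ends of 101 nt. The labels do not tell what separates the lines beyond their names, and do not say how the plants of the replicates were kept apart. The p-values therefore refer to the spread among these 4 libraries.

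Short genes of a plant genome are a mixed set. Transfer RNAs carry amino acids to the ribosome, small nuclear RNAs (snRNAs) build the spliceosome, small nucleolar RNAs (snoRNAs) guide chemical modification of ribosomal RNA, and microRNA (miRNA) genes give hairpin precursors that are cut into short regulators of other transcripts. Most of these products carry no poly(A) tail, whereas miRNA precursors begin as polyadenylated transcripts. Other short genes encode peptides, among them CLE peptides, which act as signals between plant cells, RALF-like peptides, and DVL/RTFL peptides, which affect organ shape. The values below therefore describe the annotated model, and for a miRNA gene they describe its precursor and not the mature miRNA.

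By gene class in the RefSeq annotation, 584 models were tRNA genes, 420 protein-coding genes, 174 pseudogenes, 113 miRNA precursors, 44 snoRNA genes, 9 other non-coding RNA genes, 2 snRNA genes and 2 rRNA genes, and 354 had no RefSeq entry. They lie on chromosomes 1 to 5. The deposited extent is not always that of the gene: of the 1348 models with a RefSeq entry, 1071 have the same start and end there, and 123 belong to a RefSeq gene of at least 300 nt. At least 1 library listed a value above 0 FPKM for 51 of these 123. The same held for 98 of the 1225 models whose RefSeq gene is under 300 nt. Detection of the deposited models, given below, is therefore not that of short genes alone.

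The sequences of 4 models that recur in the results, and of a tRNA model, follow, read 5′ to 3′ on the gene's strand at the deposited coordinates from the RefSeq genome (TAIR10.1). AT1G08115 encodes U1 snRNA, which pairs with the 5′ splice site of introns, and lies at chr1:2538076-2538237 on the minus strand. Its capitals mark the bases near its 5′ end that pair with the splice site. AT2G01021 (chr2:6571-6672, plus strand) is an open reading frame of 102 nt near the ribosomal RNA genes at the start of chromosome 2. AT2G07684 (chr2:3262235-3262345, minus strand) is an open reading frame of 111 nt that occurs, letter for letter, in the mitochondrial genome as well. AT5G51174 (SNOR30, chr5:20795936-20796051, plus strand) is a snoRNA gene. AT1G56740 (chr1:21269122-21269158, plus strand) is a tRNA-Tyr model of 37 nt, where the median tRNA model spans 72 nt. Its deposited extent may hold only part of the tRNA, which was not tested.
U1 snRNA, AT1G08115: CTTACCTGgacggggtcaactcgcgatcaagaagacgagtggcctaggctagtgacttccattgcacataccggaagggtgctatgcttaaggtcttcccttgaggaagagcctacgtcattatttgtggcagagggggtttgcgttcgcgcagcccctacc
AT2G01021: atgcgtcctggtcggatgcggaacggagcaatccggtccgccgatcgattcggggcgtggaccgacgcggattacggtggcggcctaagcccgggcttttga
AT2G07684: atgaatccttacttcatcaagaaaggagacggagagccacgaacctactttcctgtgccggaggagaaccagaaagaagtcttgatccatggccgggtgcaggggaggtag
SNOR30, AT5G51174: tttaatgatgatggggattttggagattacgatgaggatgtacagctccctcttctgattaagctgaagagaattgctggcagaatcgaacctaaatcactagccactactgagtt
tRNA-Tyr, AT1G56740: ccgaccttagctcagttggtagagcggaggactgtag

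Of the 15 miRNA precursors with a value, 9 are shown next by 1 mature miRNA each: those of the miR169, miR159 and miR319 families that share a seed, and those of MIR397a and MIR850, the pair with the highest values. They are grouped by seed, with the seed (bases 2 to 8) in capitals and the sequence taken from the RefSeq annotation. Members of the miR169 family are known to act on NF-YA transcription factors, miR159 on GAMYB-like MYB factors, miR319 on TCP factors and miR397 on laccases. The mature sequences of MIR169k, MIR169m and MIR169h are identical to each other, those of MIR159b and MIR159a share a seed, as do those of MIR319b and MIR319c, and MIR397a and MIR850 each have a seed of their own among the precursors with values.
miR169k: uAGCCAAGgaugacuugccug
miR169m: uAGCCAAGgaugacuugccug
miR169h: uAGCCAAGgaugacuugccug
miR159b: uUUGGAUUgaagggagcucuu
miR159a: uUUGGAUUgaagggagcucua
miR319b: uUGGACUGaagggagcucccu
miR319c: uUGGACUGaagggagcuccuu
miR397a: uCAUUGAGugcagcguugaug
miR850: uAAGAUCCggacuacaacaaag

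Most short models were listed at 0 FPKM. FPKM, the unit of the table, divides the fragments assigned to a model by its length and by the size of the library. Values above 0 were given to 101 models (5.93%) in Another Col-0 replicate 1, 107 (6.29%) in Another Col-0 replicate 2, 91 (5.35%) in SALK Col-0 replicate 1 and 102 (5.99%) in SALK Col-0 replicate 2. At least 1 library listed a value for 160 short models (9.40%), against 73.7% of the 31842 annotated models with accepted estimates, and all 4 libraries did so for 61 (3.58%), against 67.9%. A further 50 short models had a value in 1 library, 40 in 2 libraries and 9 in 3. The table holds no read counts, so an interval for a value of 0 cannot be given, and 0 is read here only as a listed value.

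No model up to the length of a read had a value. All 698 short models of up to 101 nt were at 0 in every library, and every one of the 160 models with a value was among the 1004 longer ones. The tRNA model printed above, at 37 nt, is of the first kind, and so are the precursors MIR165a and MIR166d, whose span of 101 nt equals the read. AT2G01021, 1 nt longer, had values in all 4 libraries. Among models under 150 nt, 42 of 1033 (4.07%) had a value in at least 1 library and 12 in all 4, and among those of 150 nt or more these counts were 118 of 669 (17.6%) and 49. The share did not rise at every step: it was 8.90% at 102 to 120 nt, 14.6% at 121 to 150 nt, 15.4% at 151 to 200 nt, 21.7% at 201 to 250 nt and 17.2% above 250 nt. At the upper limit of the span, 8 of 38 models in the last 10 nt below 300 nt and 17 of 61 in the first 10 nt from 300 nt on had a value.

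Locus sharing went with detection as well. Of the 326 short models in a shared locus, 75 (23.0%) had a value in at least 1 library and 45 in all 4. Of the 1376 alone in their locus, 85 (6.18%) had a value and 16 had one in all 4. This split was not particular to short models. Of annotated models of at least 300 nt, 92.5% of 8281 in shared loci and 71.6% of 21859 alone had a value. Some loci are shared with unannotated models, and whether sharing is independent of the reads of these libraries was not tested. Among the longest, above 250 nt, 21 of 29 models in shared loci and 11 of 157 alone (7.01%) had a value, where 28 of 166 alone (16.9%) had one at 201 to 250 nt.

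**Figure D1:**
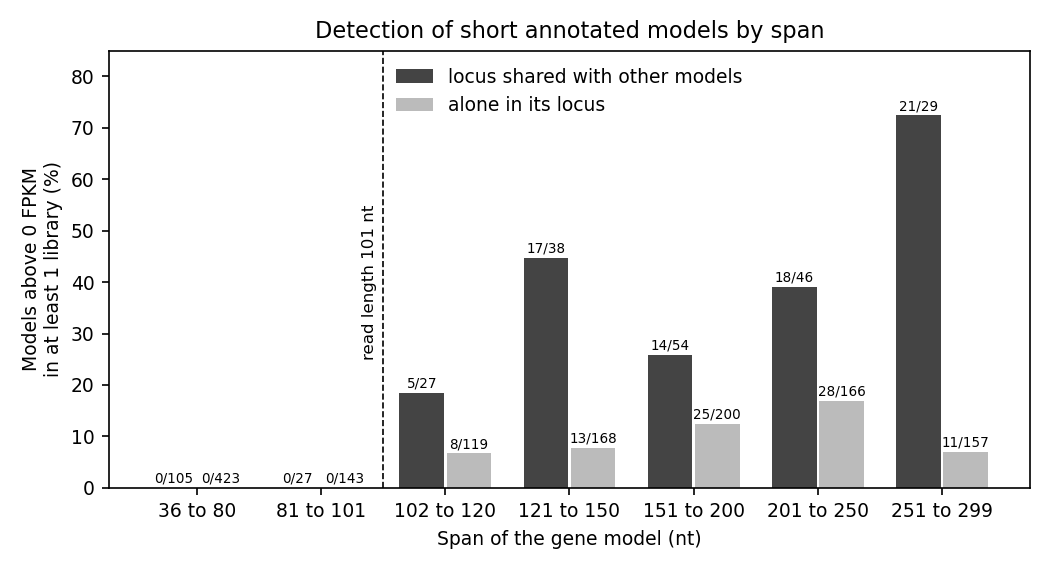
Share of short annotated models listed above 0 FPKM in at least 1 library (y axis, %) by span of the model (x axis, nt), for models in a locus shared with others and for models alone in their locus. Numbers above the bars are models with a value of all models in the bin. No bar stands left of the dashed line at the read length of 101 nt.

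The zeros differed between both kinds of locus in their deposited limits. Where a model was alone in its locus, the upper confidence limit was 0 for every one of the 5333 zeros over the 4 libraries. In shared loci it was 0 for 399 of 1074 zeros (37.2%) and above 0 for the other 675. Conversely, 65 of the 171 values above 0 of models alone in their locus, and 19 of 230 in shared loci, were larger than their own upper limit. The limits were therefore not used as errors.

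Values above 0 were higher the shorter the model. The median of such values was 110.31 FPKM for spans of 102 to 120 nt (range 19.0 to 96257), 20.3 FPKM for 121 to 150 nt (3.01 to 1172), 3.95 FPKM for 151 to 200 nt (0.849 to 288), 2.53 FPKM for 201 to 250 nt (0.294 to 1213) and 1.87 FPKM for the longest, above 250 nt (0.155 to 152). The lowest value of each bin fell along with the median. Among the 50 models that had a value in exactly 1 library, span and value were closely and inversely ordered, with a Spearman rho of -0.955. This is a description across models, which share the libraries' depth and the FPKM formula. The same quantity over the 36 of them that are alone in their locus was -0.958. A value in a model barely longer than a read is thus not comparable to the same value in a longer one: AT1G62181, a model of 102 nt with no RefSeq entry, had 723.7 FPKM in Another Col-0 replicate 2 and was at 0 in the other 3 libraries.

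**Figure D2:**
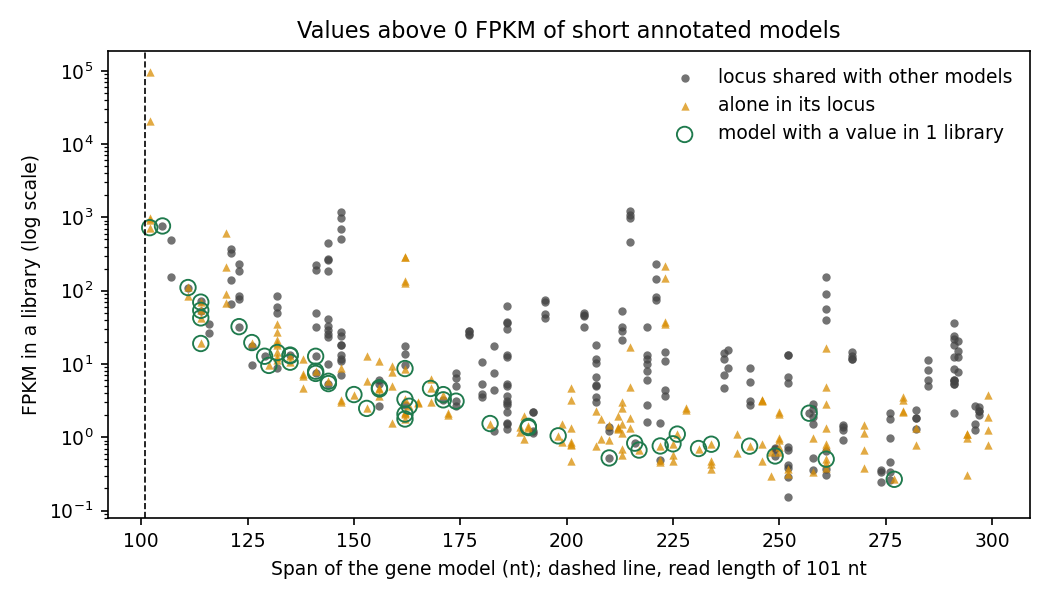
FPKM in a library (y axis, log scale) against the span of the model (x axis, nt) for every value above 0 of a short annotated model, with each point 1 model in 1 library. Rings mark the 50 models with a value in 1 library, which follow a falling line (Spearman rho -0.955); the dashed line is the read length of 101 nt.

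Of all 1702 short models, 269 (15.8%) overlapped a model on the opposite strand. Of the 61 with values in all 4 libraries, 42 (68.9%) overlapped a model on the opposite strand, 22 of them an unannotated one and 21 an annotated one. The share was 43.1% of the 160 with any value and 13.0% of the 1542 at 0 everywhere. Since the kit does not mark strand, reads of such a pair cannot be told apart, and the values of these models are uncertain. Exact sequence repeats concerned fewer models. For 153 of the 160 models with a value, every stretch of 101 nt within the model occurs in 1 place in the genome. For 4 models (AT2G01021, AT2G07684, AT2G07705 and AT5G23411) no stretch does. Near-identical copies were not searched for.

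By class, the 584 tRNA and 2 rRNA models were at 0 in every library. The tRNA models span 36 to 87 nt (median 72), shorter than a read, and hold 184 distinct sequences for 20 amino acid types. A total of 486 tRNA models had an identical copy among the tRNA models, and the tRNA-Tyr sequence printed above occurs in 45 of them, between 21269122 and 21308423 on chromosome 1. Of the protein-coding models, 105 of 420 (25.0%) had a value in at least 1 library and 44 in all 4. The counts were 15 of 113 and 3 for miRNA precursors, 19 of 174 and 6 for pseudogenes, 3 of 44 and 1 for snoRNA genes, 5 of 9 and 4 for other non-coding RNA genes, and 11 of 354 and 2 for models with no RefSeq entry. Both snRNA models had values. The classes differ in how many of their models are longer than a read. Among those longer ones, 105 of 404 protein-coding models (26.0%) and 15 of 80 miRNA precursors (18.8%) had a value. The counts were 19 of 168 for pseudogenes, 3 of 9 for snoRNA genes and 11 of 330 for models with no RefSeq entry.

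**Figure D3:**
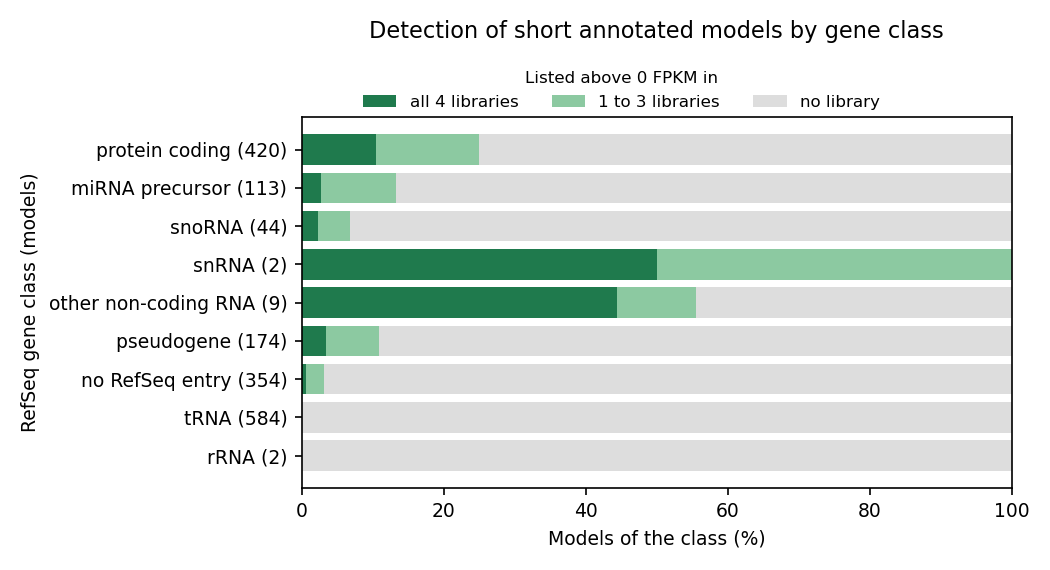
Share of the short annotated models of each RefSeq class (y axis, number of models in brackets) listed above 0 FPKM in all 4 libraries, in 1 to 3 libraries or in no library (x axis, %). The tRNA and rRNA models are at 0 throughout, and protein-coding models reach 25.0% with a value. Models no longer than a read are included, and their share differs between classes.

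The highest value of all was that of AT2G01021, the 102-nt reading frame near the ribosomal RNA genes. It had 910.1 and 96257 FPKM in Another Col-0 replicates 1 and 2, against 970.2 and 20488 FPKM in SALK Col-0 replicates 1 and 2. Both replicate 2 libraries were high and both replicate 1 libraries low, and the lines overlapped. The model offers 2 positions to a read of 101 nt, and the same 102 nt occur in a second place, at 14200542 to 14200643 on chromosome 3. It overlaps neither the annotated 18S rRNA gene AT2G01010 (3706 to 5513) nor an rRNA gene annotated from 5782 to 5945. Whether its bases belong to a ribosomal RNA that is not annotated there was not tested, so its values may not be those of a separate gene. AT2G01023, an uncharacterized reading frame of 120 nt in the same region (9648 to 9767), ran the other way, at 602.9 and 91.4 FPKM in Another Col-0 against 208.9 and 68.5 FPKM in SALK Col-0, with replicate 1 high in both lines.

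Next came 3 protein-coding models that each overlap a model on the opposite strand. AT2G40205 (chromosome 2, 16792317 to 16792531), which encodes ribosomal protein L41 of the large ribosomal subunit, had 973.6 and 1213 FPKM in Another Col-0 and 467 and 1065 FPKM in SALK Col-0. Its deposited extent is 215 nt, within a RefSeq gene of 448 nt. AT5G66053 (chromosome 5, 26416661 to 26416807), uncharacterized, had 699.9 and 1172 FPKM in Another Col-0 and 513 and 992 FPKM in SALK Col-0. AT4G30097 (chromosome 4, 14713518 to 14713661), also uncharacterized, had 258 and 187 FPKM in Another Col-0 and 447 and 267 FPKM in SALK Col-0. The lines overlapped for AT2G40205 and AT5G66053, and AT4G30097 was lower in both Another Col-0 libraries.

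Among the snRNA and snoRNA genes, the U1 snRNA gene AT1G08115 (symbol U1.5) stood at 284 and 288 FPKM in Another Col-0 against 134 and 128 FPKM in SALK Col-0. The lines did not overlap, and the replicates of a line lay close together. The model is alone in its locus, overlaps no other model, and each of its 62 stretches of 101 nt occurs in 1 place in the genome as an exact match. Near-identical copies elsewhere were not searched for, so whether reads of other U1 genes enter its values was not tested. In RefSeq the gene runs from 2538074 to 2538238, 165 nt. U6acat (AT5G40395), an snRNA of the minor spliceosome, was at 0 and 1.8 FPKM in Another Col-0 and at 0 and 0.954 FPKM in SALK Col-0. The snoRNA gene AT3G14475 had 373 and 138 FPKM in Another Col-0 and 325 and 66.0 FPKM in SALK Col-0, and overlaps a model of the disease resistance gene AT3G14470 on the other strand, which had 1.68 to 2.93 FPKM over the 4 libraries. SNOR111 was listed at 9.56 FPKM in Another Col-0 replicate 2 and at 0 in the other libraries.

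Of the miRNA precursors, 98 of 113 were at 0 in every library. MIR850 (AT4G13493, chromosome 4, 7845707 to 7845927) had 74.9 and 146 FPKM in Another Col-0 and 82.1 and 233 FPKM in SALK Col-0. It lies inside the non-coding RNA gene AT4G13495 on the same strand, whose model had 203 to 457 FPKM over the 4 libraries, so its reads cannot be told from those of that gene. MIR397a (AT4G05105, chromosome 4, 2625950 to 2626056) was at 0 in both replicate 1 libraries, and had 153 FPKM in Another Col-0 replicate 2 and 497 FPKM in SALK Col-0 replicate 2; its span is 107 nt. MIR159b had 1.55 and 13.0 FPKM in Another Col-0 and 5.32 and 12.5 FPKM in SALK Col-0, whereas MIR159a had 1.54 FPKM in SALK Col-0 replicate 2 alone.

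In the miR169 family, 4 of 12 precursors had a value. MIR169k (AT3G26815, chromosome 3, 9875525 to 9875737) was listed at 2.53 and 3.07 FPKM in Another Col-0 and at 0 in both SALK Col-0 libraries. MIR169m, which gives the same mature miRNA, had 1.33 and 1.93 FPKM in Another Col-0 and 1.38 and 1.30 FPKM in SALK Col-0. MIR169h was at 0 and 0.933 FPKM in Another Col-0 and at 0 and 1.96 FPKM in SALK Col-0. MIR169e, whose mature sequence has another seed and which was named after its values were seen, had 0.669 FPKM in SALK Col-0 replicate 2 alone. The lines thus overlapped for MIR169m and MIR169h and were apart for MIR169k. Of the miR319 family, MIR319b was at 0 and 2.02 FPKM in Another Col-0 and at 0 and 2.15 FPKM in SALK Col-0, and MIR319c had 1.54 and 0.849 FPKM in Another Col-0 and 0 in both SALK Col-0 libraries. MIR403, MIR396b, MIR861 and MIR779 each had a value in SALK Col-0 replicate 2 alone, of 10.6, 13.0, 14.3 and 2.65 FPKM in that order, and MIR828 had 1.41 FPKM in Another Col-0 replicate 2 alone.

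Of the short peptide genes, CLE genes had values for 5 of 6. CLE42 had 14.4 and 11.8 FPKM in Another Col-0 and 11.8 and 12.7 FPKM in SALK Col-0. CLE20 had 5.56 and 13.4 FPKM in Another Col-0 and 6.74 and 13.4 FPKM in SALK Col-0, high in both replicate 2 libraries. CLE14 had 3.15 and 2.73 FPKM in Another Col-0, below its 8.84 and 5.68 FPKM in SALK Col-0. All of these 3 overlap models on the opposite strand, and lie within RefSeq genes of 740, 717 and 687 nt in that order. CLE7, alone in its locus, had 1.34 and 0.740 FPKM in Another Col-0 and 0.440 and 0.814 FPKM in SALK Col-0, and CLE1 had 0.813 FPKM in SALK Col-0 replicate 2 alone; both were named after their values were seen.

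The remaining short peptide genes belong to the DVL/RTFL, IDL, RALF-like, LCR and SCRL families. Of 5 DVL/RTFL genes, 4 had a value, the highest being RTFL13 with 84.2 and 49.3 FPKM in Another Col-0 and 59.4 and 8.94 FPKM in SALK Col-0. RTFL18 had 5.40 and 2.64 FPKM in Another Col-0 and 5.97 and 0 FPKM in SALK Col-0. DVL21 had 2.07 FPKM in Another Col-0 replicate 2 alone and RTFL20, named after its values were seen, had 1.77 FPKM in SALK Col-0 replicate 2 alone. IDL4, of the family of IDA, the peptide that triggers floral organ shedding, had 1.85 and 2.34 FPKM in Another Col-0 and 1.85 and 1.29 FPKM in SALK Col-0. Of 13 RALF-like genes, RALFL28 was the one with a value, at 0.515 and 0.358 FPKM in Another Col-0 and 0 in both SALK Col-0 libraries. The 2 LCR genes and the SCRL gene, which encode cysteine-rich peptides, were at 0 throughout. The models of RTFL13, RTFL18, IDL4 and RALFL28 lie within RefSeq genes of 712, 505, 769 and 459 nt in that order.

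Among the other non-coding RNA genes, AT5G03285 had 45.9 and 49.3 FPKM in Another Col-0 and 31.8 and 45.4 FPKM in SALK Col-0. AT1G15405 had 12.3 and 20.9 FPKM in Another Col-0 and 7.88 and 15.1 FPKM in SALK Col-0, with replicate 2 the higher in both lines. AT3G57157 had 13.9 and 11.8 FPKM in Another Col-0 and 4.74 and 6.99 FPKM in SALK Col-0. The pseudogene AT1G11055 varied little, at 28.4 and 25.5 FPKM in Another Col-0 and 28.0 and 24.5 FPKM in SALK Col-0. At the edge of the set, SAUR29 (291 nt), of a family of auxin-responsive genes, had 21.8 and 18.1 FPKM in Another Col-0 and 35.99 and 24.2 FPKM in SALK Col-0, and just outside it IDL3 (300 nt) had 21.8 and 10.4 FPKM in Another Col-0 and 12.4 and 6.86 FPKM in SALK Col-0.

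The design asks which transcripts differ between the lines. Of the 1702 short models, 103 reached a mean of 1 FPKM and entered the test across all 20634 models with that mean, of which 56 had values in all 4 libraries and 47 a 0 in at least 1. With limma on log2(FPKM + 1) and the line as its only term, 0 short models had higher and 0 had lower levels in Another Col-0 at an adjusted p under 0.05, and 0% of all models tested passed in either direction. The lowest adjusted p of a short model was 0.199. At an unadjusted p under 0.05 15 short models had higher and 9 had lower levels in Another Col-0, 24 of 103 in all, where 10.2% of all models were higher, 6.45% lower and 16.7% either. Values of the lines did not overlap for 22 short models with higher and 15 with lower values in Another Col-0 (26.2% and 20.8% of all models). No line difference given below passed the test in this fit. Its residual spread holds any difference by replicate number, and deviations of same-numbered libraries correlated at 0.953 over all models tested. With the replicate number as a second term some short models passed, as given in the closing section.

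As a description with no test, line differences of short models spread more widely than those of longer models. Over the 56 with values in all 4 libraries, the median absolute line difference was 0.51 on the log2 scale, against 0.16 over 18227 tested annotated models of at least 300 nt that also had values in all 4. Over all 103 tested short models, 47 of them with a 0, it was 0.88. The median absolute difference between replicates of a line over the 56 was likewise larger, 0.52 in Another Col-0 and 0.56 in SALK Col-0, against 0.13 and 0.15. The median signed line difference of the 56 was 0.15.

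At least 2-fold differences in both replicate pairs, on the log2(FPKM + 1) scale, were found for 9 short models with higher and 6 with lower values in Another Col-0 (0.732% and 0.165% of all models tested). Of these, 7 and 5 were at 0 in both libraries of the lower line, and so passed the minimum mean through the other line alone. With values in all 4 libraries there were 2 and 1. U1 snRNA was higher by 1.12 ± 0.059 (SE, limma adjusted p = 0.199), which is 1.07 between the replicate 1 libraries and 1.17 between those of replicate 2. The pseudogene AT2G13146 had 4.85 and 17.0 FPKM in Another Col-0 against 1.86 and 1.35 FPKM in SALK Col-0, a difference of 1.99 ± 0.68 (SE, limma adjusted p = 0.318). AT5G14560 (chromosome 5, 4693964 to 4694086), an uncharacterized reading frame of 123 nt that overlaps AT5G14550 on the opposite strand, had 83.4 and 77.6 FPKM in Another Col-0 against 183 and 232 FPKM in SALK Col-0, a difference of -1.35 ± 0.15 (SE, limma adjusted p = 0.199). It was named after its values were seen.

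Models at 1 FPKM or more in both libraries of a line and at 0 in both of the other numbered 9 for Another Col-0 and 5 for SALK Col-0 among the 1702 short models. Among the 30140 annotated models of at least 300 nt they numbered 4 and 0, and over all annotated models the shares were 0.0408% and 0.0157%. These counts are not alike, since 1 FPKM is a low bar for the shortest models. At 102 to 120 nt the lowest value above 0 was 19.0 FPKM. Models of 114 nt with a value in 1 library alone had 19.0 to 69.7 FPKM. AT3G51642, of 111 nt, had 110 FPKM in SALK Col-0 replicate 1 alone. AT2G07684 had 111 and 84.8 FPKM in Another Col-0 and 0 in both SALK Col-0 libraries. All of its 11 stretches of 101 nt also occur in the mitochondrial genome (280271 to 280381), so its reads cannot be assigned to the chromosome 2 copy. AT3G25011 (chromosome 3, 9113168 to 9113281) had 72.8 and 52.3 FPKM in Another Col-0 and 0 in SALK Col-0; it is 114 nt in the table, shares its locus with other models and belongs to a RefSeq gene of 558 nt. SNOR30 had 0 in both Another Col-0 libraries and 26.8 and 35.3 FPKM in SALK Col-0, and overlaps an unannotated model on the opposite strand that was above 0 in both replicate 2 libraries and at 0 in both replicate 1 libraries.

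The others had lower FPKM values. Those at 0 in SALK Col-0 were AT2G11271 (9.60 and 17.3 FPKM in Another Col-0), AT5G13181 (11.7 and 7.38 FPKM), AT2G20784 (10.8 and 3.70 FPKM), AT5G56865 (2.98 and 3.04 FPKM) and MIR169k, beside others with a mean under 1 FPKM. Those at 0 in Another Col-0 were AT1G35242 (5.87 and 13.0 FPKM in SALK Col-0), AT4G09649 (4.67 and 6.80 FPKM), AT2G11891 (3.02 and 6.33 FPKM) and AT1G51035 (2.54 and 2.32 FPKM), which was named after its values were seen. All of them are uncharacterized reading frames but AT5G56865, which has no RefSeq entry, and MIR169k. AT5G13181, AT1G35242, AT1G51035 and AT2G20784 belong to RefSeq genes of 762, 576, 477 and 260 nt in that order, longer than the deposited models.

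**Figure D4:**
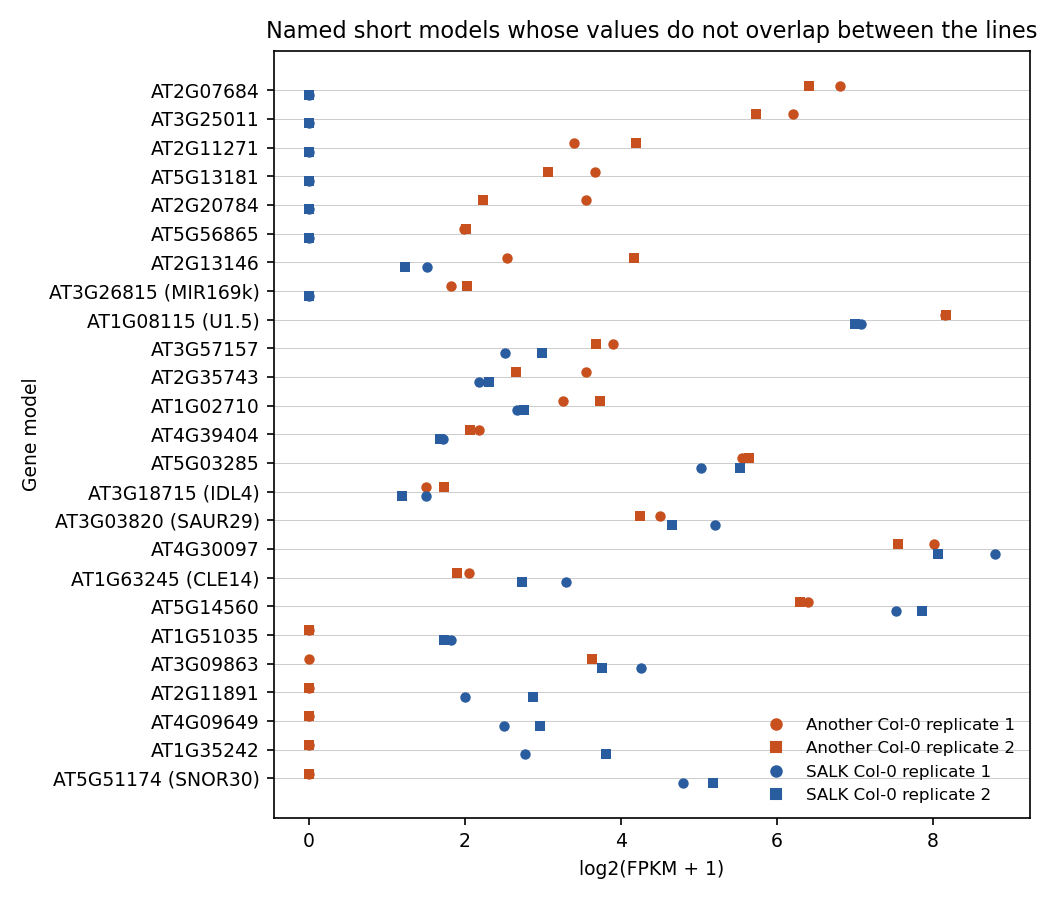
log2(FPKM + 1) (x axis) of the named short models whose values do not overlap between the lines (y axis), with Another Col-0 drawn above SALK Col-0 in each row and symbols for replicates 1 and 2. Models at 0 throughout a line stand at the top and bottom, and both U1 snRNA values of Another Col-0 lie above both of SALK Col-0.

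**Figure D5:**
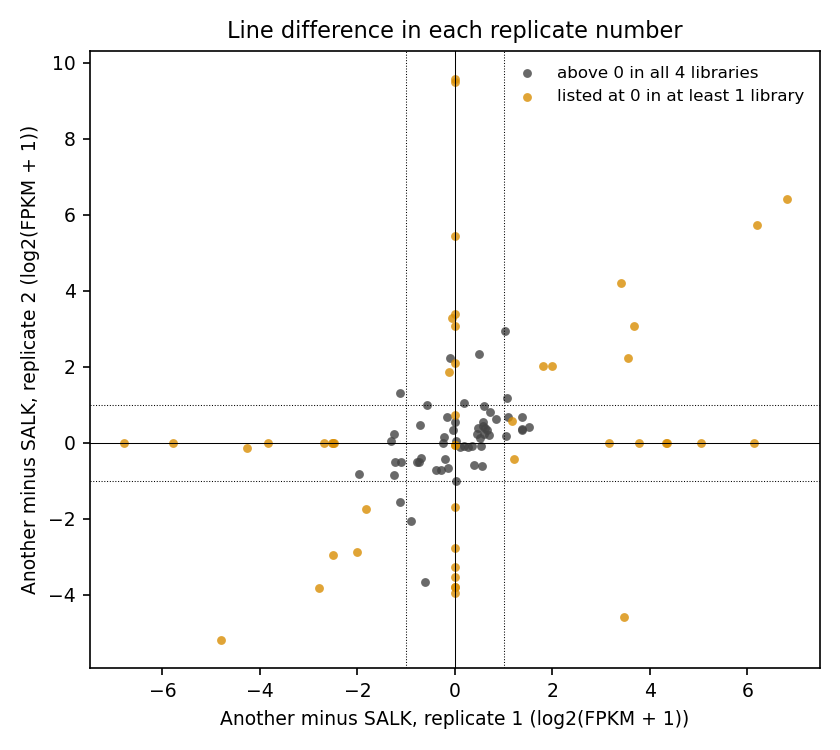
Line difference of the 103 tested short models, Another Col-0 minus SALK Col-0 on the log2(FPKM + 1) scale, in replicate 1 (x axis) and replicate 2 (y axis), with dotted lines at a 2-fold difference. Models with a 0 in at least 1 library make up the points along the axes and most of the far corners, and those with values in all 4 libraries gather near the centre.

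The libraries were also compared by replicate number, since replicate numbers set libraries apart across the table. With the number as a second term beside the line, 13 short models were higher and 5 lower in replicate 2 at a limma adjusted p under 0.05, 12.6% and 4.85% of the 103, where 18.7% of all models tested were higher and 14.1% lower. At 2-fold or more in both lines there were 8 higher and 4 lower, 7.77% and 3.88%, against 8.01% and 3.59% of all models. These shares lie near or below those of the whole table.

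Some single short models differed widely by replicate number. AT2G01021 rose in replicate 2 by 5.56 ± 0.69 on the log2 scale (SE, limma adjusted p = 0.0246), by 6.72 in Another Col-0 and 4.40 in SALK Col-0. MIR397a rose by 8.11 ± 0.50 (SE, limma adjusted p = 0.00815) with both replicate 1 libraries at 0, so the size depends on the added 1 FPKM. AT3G01319, an uncharacterized reading frame, had 226 FPKM in replicate 2 and 49.1 FPKM in replicate 1 of Another Col-0, and 194 and 32.2 FPKM in those of SALK Col-0, and rose by 2.37 ± 0.11 (SE, limma adjusted p = 0.00543). MIR850 rose by 1.23 ± 0.16 and CLE20 by 1.01 ± 0.079 (SE, limma adjusted p = 0.0272 and 0.0122).

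Among those that fell in replicate 2 was AT4G37095 (chromosome 4, 17478885 to 17479107), an uncharacterized protein gene alone in its locus. It had 35.4 FPKM in replicate 2 and 215.9 FPKM in replicate 1 of Another Col-0, and 37.6 and 149 FPKM in those of SALK Col-0, and fell by 2.27 on the log2 scale (SE 0.18, limma adjusted p = 0.0129). AT2G01023 fell by 2.15 (SE 0.33, limma adjusted p = 0.0341) and the snoRNA gene AT3G14475 by 1.86 (SE 0.25, limma adjusted p = 0.0288). AT4G30097 fell by 0.60 (SE 0.086, limma adjusted p = 0.0308).

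The unannotated models across from short ones split by replicate number much as unannotated models did in general. Of the 29 unannotated opposite-strand partners of short models with a value, 17 (58.6%) were at 0 in both replicate 1 libraries and above 0 in both replicate 2 libraries, and 5 (17.2%) the reverse. Over all 3610 unannotated models with a value these counts were 1862 (51.6%) and 826 (22.9%), shares near those of the partners, and over the 23465 annotated ones they were 46 and 54. The partner of RTFL13 had 5.83 FPKM in replicate 2 and 0.194 FPKM in replicate 1 of Another Col-0, and 6.36 and 0 FPKM in those of SALK Col-0, while RTFL13 itself was lower in replicate 2 of both lines. The part of these partners in the values of the short models was not tested.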

How the data were processed

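The authors deposited 1 table of FPKM values per gene model and library with lower and upper confidence limits and a status beside each, per the file headers. The limits are a signal on the same FPKM scale that the authors deposited beside each value, and they were used only to describe zeros and to count values above their own upper limit. Per the submitters' processing notes, TopHat, Cufflinks and Cuffdiff were used with the TAIR10 build; their roles and versions are not given in the sources used here. The table holds no read counts, so the depth per library is unknown. Summed over all models, Another Col-0 replicates 1 and 2 had 1590250 and 1228120 FPKM, and SALK Col-0 replicates 1 and 2 had 1762920 and 1076880 FPKM. FPKM divides by length, so a read adds more to a short model's value than to a long one's. The length that the software used is not given in the sources used here, and whether it equals the span was not tested. Values of short models with a value in 1 library ran from 0.267 to 763 FPKM, more widely than their spans.

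Short models were those with a track identifier, an annotated transcript, a span under 300 nt and status OK in all 4 libraries; 301 rows without an identifier were left out. Classes, symbols and sequences came from RefSeq (TAIR10.1), matched by gene identifier for 1348 models. Coordinates are the deposited ones, counted from 1. As a check of the sequences, 249 of 249 reading frames that fill a model in 1 exon opened with ATG and ended in a stop codon.

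Models averaging 1 FPKM or more were tested with limma 3.58.1 (R 4.3.3) on log2(FPKM + 1), which understates changes of low models, with a mean-variance trend, two-sided, and Benjamini-Hochberg adjustment over all 20634 models at 0.05. The main fit had the line as its term and 2 residual degrees of freedom; line differences have SALK Col-0 subtracted from Another Col-0. A second fit added the replicate number, with 1 residual degree of freedom (difference, replicate 2 minus 1). With 2 libraries a line, the smallest two-sided p of an exact permutation test is 0.333. The script was tested on simulated data.

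Models named were drawn from those past the threshold, the 4 of highest mean per class and up to 10 at 0 in a line. They were also drawn from 3 on each side of the span limit and 3 per peptide or miRNA family. The 5 largest non-overlapping line differences and the 5 largest replicate-number differences per direction were further sources. Not every model that these rules pick is given, and AT3G06019, AT2G36040, AT3G09863 and AT5G65580 are among those left out. Others are marked in the text or are named for their span, sequence or overlap. Alternatives covered the pseudocount, filter, scaling, trend, replicate block, models fitted, span limit, detection limit and each library left out. The short models, lists and rules were chosen with earlier results of these data known.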

Additional observations from a re-analysis of the deposited data

How the results depend on the processing

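The count of 0 higher and 0 lower short models held with a pseudocount of 0.1, no filter, a mean of at least 5 FPKM, quantile or median-ratio scaling, no trend, a threshold of 0.1 and with any library left out (0 to 0 in either direction). It became 3 higher and 1 lower when annotated models alone were fitted (AT2G07684, AT3G25011, AT5G56865 and SNOR30), and 5 and 3 with annotated models alone in their locus. The models named here were each at 0 in both libraries of 1 line. They reached the minimum mean through the other line alone, so their passing is no support for a line difference. With the replicate block the count was 15 and 9, and 23 and 17 with annotated models and the block. The shares of all models that passed in these fits are not given here. The counts can therefore not be read as particular to short models. Deviations of same-numbered libraries correlated at 0.953 over all models and 0.265 over the 103 short ones. With only 2 numbers that no label ties to a batch, the samples are not taken as paired. U1 snRNA had an adjusted p of 0.0337 with the block and 0.0352 among models alone in their locus; over its alternatives the adjusted p ranged between 0.00266 and 0.806.

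Line differences were recomputed only for the 25 named models whose values do not overlap between the lines. Of 328 such values, 0 changed sign, and 51 passed the threshold where the main one did not. Models chosen for lines that do not overlap can hardly change sign, so the stable signs are no test of the differences. For replicate numbers, the 13 higher became 20 with annotated models alone, and the 5 lower became 9 with a pseudocount of 0.1, 16 with quantile scaling and 11 with annotated models alone. The 9 higher and 6 lower models at 2-fold in both pairs became 5 and 2 at a mean of at least 5 FPKM. They became 2 and 1 among those with values in all 4 libraries, an alternative chosen after seeing the data. Leaving out models that overlap an opposite-strand one gave 7 and 4, and was chosen after seeing the data as well. Shares of all models under these alternatives are not given here. The counts in this paragraph can therefore not be read as particular to short models.

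Detection in Another Col-0 replicates 1 and 2 and SALK Col-0 replicates 1 and 2 became 164, 173, 142 and 157 models at spans under 350 nt, and 42, 47, 37 and 45 among models alone in their locus. The cause of these shifts was not tested, beyond the change in the models counted. With no read counts, the counting error of a value and the limit that a 0 allows are not known.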
